A study of Mus musculus with 10 samples.

Results

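Cholesterol handling was followed through 32 genes, chosen by name from the 26312 genes of the deposited table: 18 enzymes of cholesterol synthesis, 5 regulators of the SREBP transcription factors, 4 genes of uptake and intracellular sterol transport, and 5 genes of the LXR receptors, sterol export and storage. Of these, 31 had a mean of at least 10 normalized read counts over the libraries and were tested; Stard4, a cytosolic sterol carrier, lay below that level with 1 to 14. The RNA came from luminal mammary epithelial cells, sorted from C57BL/6J mice aged 12 weeks by high EpCAM, low CD49f, presence of Sca-1 and absence of CD49b. Wild-type mice, RSK2(+/+), gave 3 libraries in estrus and 2 in diestrus. Mice labelled RSK2(-/-), called KO here, likewise gave 3 libraries in estrus and 2 in diestrus. RSK2, encoded by Rps6ka3, is a kinase activated by ERK1/2. No treatment or transgene is named for any group, and the labels do not say which part of Rps6ka3 is deleted. They do not say either whether a library stands for 1 mouse or a pool, so the tests measure the spread between libraries, which may be technical. In bulk RNA, fewer cells of a type and less RNA per cell cannot be told apart.

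Cells make cholesterol from acetyl-CoA through the mevalonate arm, which ends in farnesyl diphosphate, and then through squalene, lanosterol and a series of demethylation, isomerisation and reduction steps. SREBP2 is held in the endoplasmic reticulum by SCAP and the INSIG proteins while sterols are plentiful; when sterols fall, SCAP carries it to the Golgi, where it is cleaved, and its free part switches on genes of synthesis and uptake. LXR receptors work in the other direction: oxysterols activate them, and they raise genes of sterol export. The mammary epithelium uses these pathways for its membranes and, in lactation, for milk fat.

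Of the synthesis genes whose RNA was lowest in the KO estrus libraries, Sqle had no promoter window in the source used. The promoters of the other 5 are shown first, since SREBP and its partner NF-Y bind such sequences. They are the 250 bases before the annotated start site, 5′ to 3′ on the gene's strand, from RefSeq on GRCm38.p6. Capitals mark the sterol regulatory element core TCACNCCAC and the CCAAT box (CCAAT, or ATTGG for the other strand). Hmgcs1 lies on the plus strand at chr13:119690101-119690350, Idi1 on the plus strand at chr13:8885356-8885605, Cyp51 on the minus strand at chr5:4104698-4104947, Msmo1 on the minus strand at chr8:64733579-64733828 and Sc5d on the minus strand at chr9:42264301-42264550.
Hmgcs1: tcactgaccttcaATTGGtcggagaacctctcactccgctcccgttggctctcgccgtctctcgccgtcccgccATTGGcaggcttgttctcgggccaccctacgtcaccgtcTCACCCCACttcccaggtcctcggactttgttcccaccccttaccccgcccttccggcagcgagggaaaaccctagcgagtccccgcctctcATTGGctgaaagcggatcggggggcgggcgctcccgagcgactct
Idi1: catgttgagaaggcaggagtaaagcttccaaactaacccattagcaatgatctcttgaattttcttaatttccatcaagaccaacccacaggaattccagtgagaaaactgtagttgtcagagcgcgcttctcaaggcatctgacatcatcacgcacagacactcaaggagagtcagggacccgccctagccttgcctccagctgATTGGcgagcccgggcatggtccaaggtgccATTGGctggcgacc
Cyp51: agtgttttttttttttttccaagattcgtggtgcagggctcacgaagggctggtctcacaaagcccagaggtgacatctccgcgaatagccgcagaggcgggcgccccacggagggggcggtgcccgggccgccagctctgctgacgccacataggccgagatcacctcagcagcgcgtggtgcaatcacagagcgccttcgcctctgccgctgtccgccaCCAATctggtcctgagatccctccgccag
Msmo1: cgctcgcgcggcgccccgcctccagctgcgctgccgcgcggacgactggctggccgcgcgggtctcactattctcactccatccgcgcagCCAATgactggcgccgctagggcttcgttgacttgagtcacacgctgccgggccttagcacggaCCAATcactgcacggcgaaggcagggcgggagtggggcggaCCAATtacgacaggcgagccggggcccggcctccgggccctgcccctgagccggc
Sc5d: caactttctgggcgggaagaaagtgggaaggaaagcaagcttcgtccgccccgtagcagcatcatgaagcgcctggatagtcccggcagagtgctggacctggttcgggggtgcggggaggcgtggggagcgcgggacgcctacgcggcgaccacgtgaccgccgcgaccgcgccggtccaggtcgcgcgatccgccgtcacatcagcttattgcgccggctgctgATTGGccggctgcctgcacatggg

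RefSeq promoter windows, 250 bases before to 50 after a start site, were found for 26 of the 32 genes, with 35 windows in all. Both strands were searched for each motif. A CCAAT box occurred in 22 of the 35 windows (62.9%), against 37.4% of the 32851 windows of all genes. By role it was in 5 of 7 windows of the mevalonate arm (71.4%), 9 of 11 of the squalene and sterol arm (81.8%), 5 of 10 of the SREBP regulators, 2 of 2 of the uptake and transport genes and 1 of 5 of the LXR group (20.0%). The sterol regulatory element core was in 1 window, that of Hmgcs1, as TCACCCCAC starting 137 bases before the start site; 1.24% of all windows held it. The E-box CACGTG was in 7 of 35 windows (20.0%), against 7.15% of all; 2 of the 7 are overlapping windows of Scap that share 1 E-box. The LXR repeat, 2 copies of AGGTCA with 4 bases between them, was in 0 of the 35 windows and in 0.0152% of all. A match is only a run of letters in this window.

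The libraries held 14108057 to 15307238 normalized counts each. On the first principal component of all tested genes (29.3% of the variance) the KO estrus libraries scored 37.4 to 55.8 and the others -33.1 to -5.5. Their counts also leaned away from long genes: the log2 change per doubling of exon length was -0.104 to -0.0276 in KO estrus, -0.0188 to 0.031 in WT, and 0.0483 and 0.0506 in KO diestrus. Rps6ka3 itself (ENSMUSG00000031309) had 136, 128 and 137 normalized counts in WT estrus, 165 and 139 in WT diestrus, 158, 156 and 164 in KO estrus, and 156 and 165 in KO diestrus. It was not lower in the libraries labelled KO (limma adjusted p = 0.35 at estrus and 0.996 at diestrus), so its RNA level does not check the genotype label. The gate selects hormone-sensing luminal cells, and their 11 markers, none at 0 in any group, summed to 92725 to 123398 normalized counts in WT estrus, 94287 to 109109 in WT diestrus, 106424 to 111146 in KO estrus and 77180 to 85686 in KO diestrus. Between the stages in KO, 3 of the 10 tested were called higher in estrus (Gata3, Ly6a and Wnt4) and 1 lower (Prom1), where 16.6% of all genes were called. The 8 markers of luminal progenitors, cells that the gate should leave out, summed to 3632 to 3856, 2356 to 3984, 4173 to 5804 and 4207 to 4418 in the same order of groups. They did not move together at estrus. Lcn2 and Wfdc18 were higher and Elf5 and Itga2 lower in KO without overlap, as were 12.9% and 13.1% of all genes. Itga2, which encodes CD49b, had 174, 96 and 57 in KO estrus against 203, 221 and 195 in WT estrus. Between the stages in KO, 1 of the 8 was called higher and 1 lower. The part of these shifts in the results on KO estrus was not tested.

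Divided by exon length, the most abundant transcripts of the set were Fdft1, which encodes squalene synthase, with a mean of 533 normalized counts per kb, the sterol isomerase Ebp with 521, and Srebf1 with 463. Sqle followed with 418 and Srebf2 with 405. The lowest of the tested genes were the sterol exporter Abca1 with 16.9 and the cholesterol esterifying enzyme Soat1 with 24.9 per kb. Summed over the 18 synthesis enzymes, the normalized counts were 15281, 13218 and 19845 in WT estrus, 13743 and 17820 in WT diestrus, 10591, 11372 and 11976 in KO estrus, and 17133 and 14516 in KO diestrus. The 3 KO estrus libraries thus had the lowest sums, and the third WT estrus library the highest; that library held the highest value for 9 of the 18 enzymes.

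**Figure D1:**
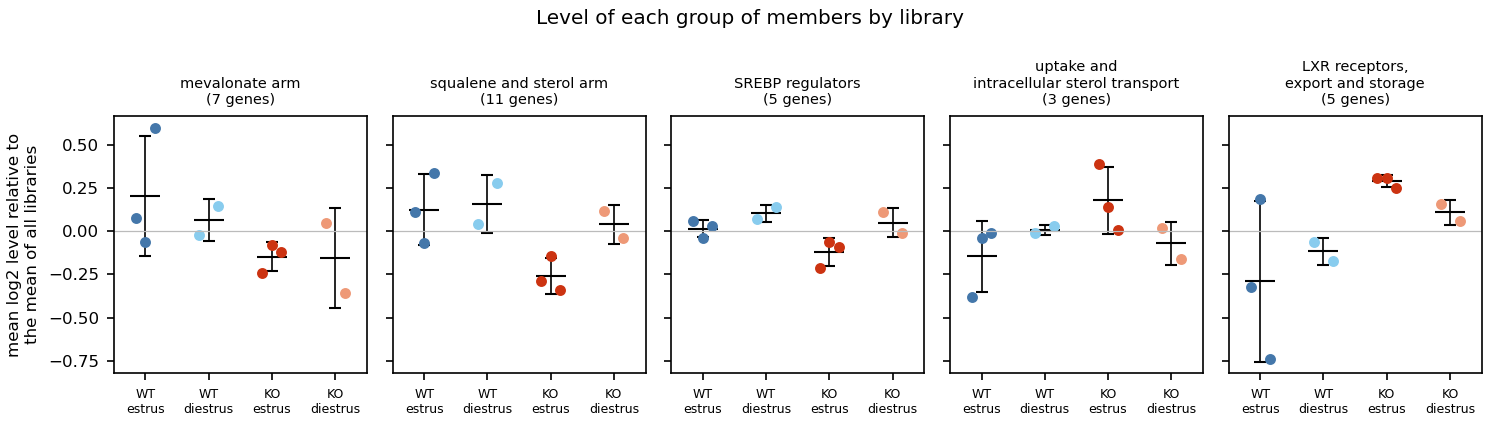
Each point is 1 library's mean log2 level of a group of genes relative to the mean of all 10 libraries; long bars are group means and whiskers 1 SD. In the squalene and sterol arm the KO estrus libraries were at -0.34 to -0.14 and all others at -0.07 or above, while the LXR group was at 0.25 to 0.31 in KO estrus and ranged from -0.74 to 0.19 in WT estrus.

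At estrus, the enzymes of synthesis leaned lower in KO than in WT, and Sqle alone passed the test. Of 31 members, 1 was called lower and 0 higher at an adjusted p under 0.05 (limma, Benjamini-Hochberg over 15180 genes), or 3.23%; of all tested genes 4.2% were called, 2.94% lower and 1.26% higher. Of the 18 synthesis enzymes 13 had a log2 difference below 0, as did 51% of all genes, and their median was -0.20 against -0.01 for all genes. That median was -0.11 without the third WT estrus library and -0.36 without the second. For 6 of them, Hmgcs1, Idi1, Sqle, Cyp51, Msmo1 and Sc5d, every KO estrus library lay below every WT estrus library (33.3%), as was so for 13.1% of all tested genes; the same 6 had an unadjusted p under 0.05, against 14% of all genes. The 7 members that were lowest in KO estrus against all 7 other libraries were these 6 and Srebf2 (9.93% of all genes had this pattern), and the 2 that were highest there were Npc2 and Nr1h3 (9.46%).

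In the mevalonate arm, the differences furthest below 0 between KO and WT at estrus stood at a step near its start and one near its end. Hmgcs1 (ENSMUSG00000093930, GRCm38 chromosome 13, 119690379 to 119708260), which encodes the cytosolic HMG-CoA synthase, had 984, 1026 and 3044 normalized counts in WT estrus, 938 and 1713 in WT diestrus, 453, 609 and 740 in KO estrus, and 1405 and 1094 in KO diestrus. The KO estrus libraries lay below the other 7, and the third WT estrus library lay far above the rest. The means were 1685 ± 1177 (SD, n = 3) in WT estrus and 601 ± 144 (SD, n = 3) in KO estrus, a log2 difference of -1.30 ± 0.38 (SE) that did not pass the test (limma adjusted p = 0.066). Without the third WT estrus library it was -0.77 (adjusted p = 0.146). Exons of Hmgcs1 share 12.1% of their bases with an antisense gene.

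Idi1, whose product isomerises isopentenyl diphosphate, had 581, 448 and 1187 normalized counts in WT estrus, 409 and 766 in WT diestrus, 313, 353 and 305 in KO estrus, and 702 and 582 in KO diestrus. KO estrus was again below every other library, and the log2 difference from WT estrus was -1.06 ± 0.32 (SE; limma adjusted p = 0.0674), and -0.66 without the third WT estrus library (adjusted p = 0.169). Pmvk, phosphomevalonate kinase, did not share this order. It had 231, 198 and 269 in WT estrus and 281, 232 and 299 in KO estrus, which overlapped (log2 difference 0.22), and was lower in both diestrus groups, with 187 and 170 in WT and 160 and 138 in KO.

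The other 4 genes of this arm gave log2 differences of -0.21 to 0.09 between KO and WT at estrus, with overlapping values. These were the thiolase Acat2, which has the near-identical copy Acat3 and is uncertain for that reason, mevalonate kinase Mvk, the decarboxylase Mvd, and farnesyl diphosphate synthase Fdps, which shares 26.7% of its exon bases with another gene on its strand. Mvk was lowest in KO diestrus, with 58 and 33 normalized counts against 64 to 123 in all other libraries. Its difference from WT diestrus, -0.86 ± 0.36 on the log2 scale (SE), did not pass the test (limma adjusted p = 0.789) and ran from -1.26 to -0.46 with a library left out, the ends being without the first and the second KO diestrus library.

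In the squalene and sterol arm, Sqle fell in KO estrus. Sqle (ENSMUSG00000022351, GRCm38 chromosome 15, 59315077 to 59331192) encodes squalene epoxidase, which adds oxygen to squalene and is a rate-controlling step. It had 2536, 2096 and 3160 normalized counts in WT estrus, 2422 and 3037 in WT diestrus, 1000, 1277 and 1773 in KO estrus, and 3192 and 2680 in KO diestrus. All KO estrus values were below the other 7, and the KO diestrus values lay among those of WT. The means were 2597 ± 535 (SD, n = 3) in WT estrus and 1350 ± 392 (SD, n = 3) in KO estrus, which was 1.95-fold lower in KO (log2 difference -0.96 ± 0.21 SE, limma adjusted p = 0.0365). The call was kept under 10 of 22 alternative settings, with log2 differences of -1.18 to -0.77 and adjusted p of 0.0163 to 0.109. It held with the first WT estrus or the third KO estrus library left out, and was lost with any of the other 8 left out, at adjusted p of 0.0573 to 0.106. Without the third WT estrus library the difference was -0.81 (adjusted p = 0.0997), without the first KO estrus library -0.77 (adjusted p = 0.106), and with the trend on gene length and GC content removed it was -0.83 (adjusted p = 0.0639).

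A further 3 enzymes of this arm were lowest in KO estrus without passing the test. Msmo1, the methylsterol monooxygenase that removes methyl groups at carbon C4, had 2114, 1337 and 2766 normalized counts in WT estrus, 1540 and 2722 in WT diestrus, 1011, 973 and 1274 in KO estrus, and 2471 and 2499 in KO diestrus. Its log2 difference at estrus was -0.88 ± 0.26 (SE; limma adjusted p = 0.066), and -0.64 without the third WT estrus library. The second WT estrus library, with 1337, came close to the KO values. Cyp51, lanosterol demethylase, had 583, 499 and 946 in WT estrus, 470 and 750 in WT diestrus, 334, 414 and 359 in KO estrus, and 715 and 556 in KO diestrus, with a log2 difference of -0.82 ± 0.24 (SE; limma adjusted p = 0.0663). Sc5d, the sterol desaturase, had 1343, 1485 and 1424 in WT estrus, 1324 and 1833 in WT diestrus, 1041, 1043 and 1181 in KO estrus, and 2331 and 1750 in KO diestrus. Its WT estrus libraries were tightly grouped (1417 ± 71.2, SD, n = 3), and the log2 difference was -0.38 ± 0.16 (SE; limma adjusted p = 0.149).

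**Figure D2:**
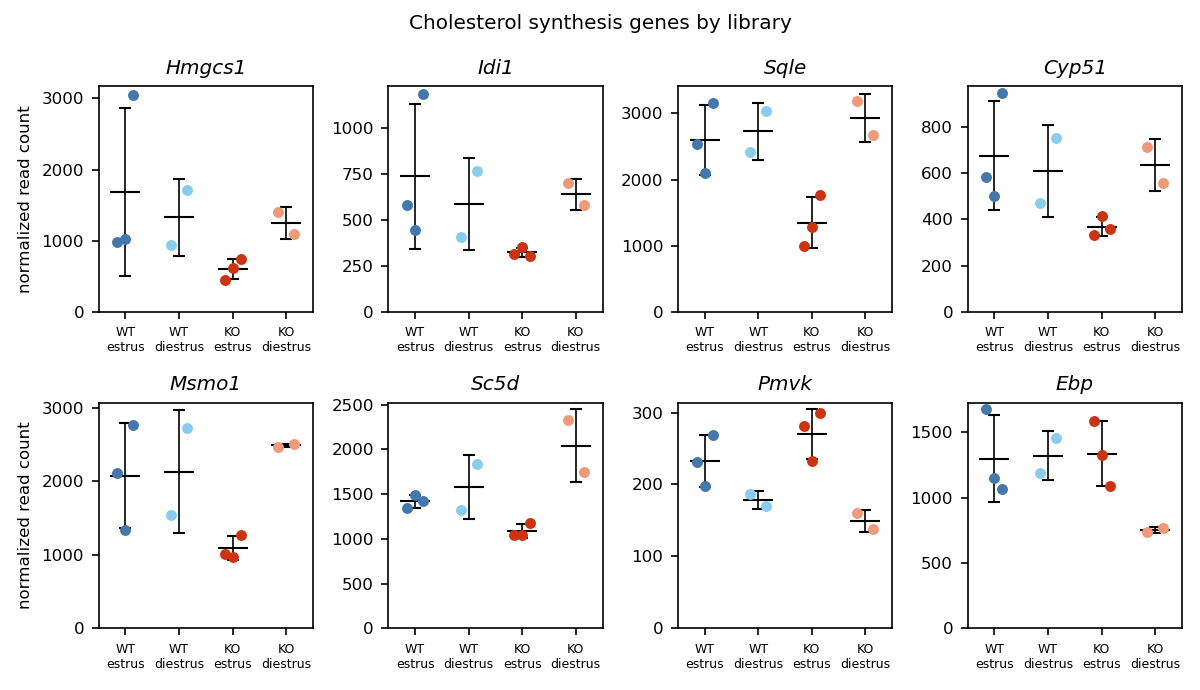
Normalized read counts of 8 synthesis genes in each library (points), with group means (bars) and 1 SD (whiskers; 3 libraries per estrus group, 2 per diestrus group). For Hmgcs1, Idi1, Sqle, Cyp51, Msmo1 and Sc5d the KO estrus points lie below those of all other libraries, as for Sqle with 1000 to 1773 against 2096 to 3192; Pmvk and Ebp are lowest in KO diestrus.

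Ebp, which isomerises the sterol ring, had another order. Its normalized counts were 1680, 1148 and 1063 in WT estrus, 1189 and 1455 in WT diestrus, 1589, 1323 and 1092 in KO estrus, and 736 and 767 in KO diestrus. The KO diestrus libraries were the lowest, and the other groups overlapped. The difference between KO and WT at diestrus was -0.81 ± 0.23 on the log2 scale (SE), with an unadjusted p of 0.00493 that was not significant over all genes (limma adjusted p = 0.438).

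The remaining 6 enzymes of the arm overlapped between KO and WT at estrus. The log2 differences were -0.60 ± 0.34 (SE) for Hsd17b7 and -0.49 ± 0.31 for lanosterol synthase, Lss, both with a wide spread: Lss had 212, 348 and 158 normalized counts in KO estrus, and Hsd17b7, a 3-ketosteroid reductase, had 139, 141 and 54. Without the third KO estrus library the differences were -0.15 for Hsd17b7 and -0.23 for Lss, and Lss was at -0.80 without the second KO estrus library and -0.17 without the third WT estrus library. Squalene synthase Fdft1, the reductases Tm7sf2 and Dhcr7, and the dehydrogenase Nsdhl gave -0.14 to 0.08. Fdft1 ranged only from 1864 to 2667 over the 10 libraries. Its exons share 18.3% of their bases with Ctsb on the other strand, and those of Tm7sf2 share 12.1% with Vps51 on the same strand, so reads there may belong to either gene.

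Among the regulators, Srebf2, the gene of SREBP2, was lowest in KO estrus, and none of the 5 passed the test at estrus. Srebf2 had 2623, 3092 and 3193 normalized counts in WT estrus, 3438 and 3589 in WT diestrus, 2104, 2597 and 2050 in KO estrus, and 3595 and 2813 in KO diestrus. The groups did not overlap at estrus, where the second KO library lay just under the first WT library. The log2 difference was -0.40 ± 0.15 (SE; limma adjusted p = 0.115). Insig1, the gene of an INSIG anchor and itself a target of SREBP, had 249, 125 and 322 in WT estrus, 215 and 306 in WT diestrus, 162, 129 and 144 in KO estrus, and 185 and 180 in KO diestrus. The WT estrus values ran from 125 to 322 and enclosed those of KO (log2 difference -0.58 ± 0.29 SE, limma adjusted p = 0.243). The value for Insig1 was -0.29 without the third WT estrus library and -0.97 without the second (adjusted p = 0.071). Insig2, Scap and Srebf1, whose product mainly serves fatty acid synthesis, gave 0.18, 0.09 and 0.05 with overlapping values; Scap shares 13.2% of its exon bases with a gene on the other strand.

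Of the uptake and transport genes, Npc2 was highest in KO estrus. Npc2 (ENSMUSG00000021242, GRCm38 chromosome 12, 84754562 to 84773152) encodes the soluble lysosomal protein that hands cholesterol to NPC1. It had 1324, 1428 and 1452 normalized counts in WT estrus, 1379 and 1345 in WT diestrus, 1786, 1989 and 1906 in KO estrus, and 1229 and 1380 in KO diestrus. The KO estrus libraries stood above the other 7, which spanned only 1229 to 1452. The difference from WT estrus, 0.43 ± 0.12 on the log2 scale (SE), just missed the threshold (limma adjusted p = 0.0559) and passed it once the trend on gene length and GC content was removed (0.53, adjusted p = 0.0415).

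Npc1, the membrane partner of NPC2, had 694 normalized counts in the first KO estrus library and 337 and 368 in the other two, against 368 to 439 in WT estrus. Mylip, a ubiquitin ligase induced by LXR that removes lipoprotein receptors, had 114, 220 and 191 in WT estrus and 226, 250 and 180 in KO estrus, with a log2 difference of 0.36 ± 0.25 (SE; limma adjusted p = 0.403), which was 0.08 without the first WT estrus library and 0.55 without the second. Neither gene separated the groups.

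The 5 genes of LXR receptors, export and storage all had log2 differences above 0 at estrus, where 51% of all genes were below 0. Their median, which is the value of Abcg1, was 0.66 against -0.01 for all genes, and none passed the test. Nr1h3 (ENSMUSG00000002108, GRCm38 chromosome 2, 91184061 to 91202834), the gene of LXR alpha, had 69, 78 and 71 normalized counts in WT estrus, 58 and 53 in WT diestrus, 127, 135 and 109 in KO estrus, and 62 and 49 in KO diestrus. KO estrus was above all other libraries, at 124 ± 13.3 (SD, n = 3) against 72.7 ± 4.73 (SD, n = 3) in WT estrus. The log2 difference was 0.76 ± 0.21 (SE; limma adjusted p = 0.0574), and 0.55 with the trend on gene length and GC content removed (adjusted p = 0.161). Nr1h2, the gene of LXR beta, overlapped between the groups, with 1010 to 1340 in WT estrus and 1171 to 1439 in KO estrus.

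Abca1 (ENSMUSG00000015243, GRCm38 chromosome 4, 53030787 to 53159895), which moves cholesterol to lipid-poor apolipoproteins, had 90, 359 and 38 normalized counts in WT estrus, 131 and 121 in WT diestrus, 209, 239 and 219 in KO estrus, and 181 and 160 in KO diestrus. The KO estrus libraries agreed closely, whereas the WT estrus libraries spread 9.45-fold and enclosed them. The log2 difference at estrus, 1.04 ± 0.57 (SE), rested on single WT libraries: it was 1.90 without the second (limma adjusted p = 0.0378) and 0.30 without the third (adjusted p = 0.734). Abcg1, a second sterol exporter, also varied within WT estrus, at 173, 267 and 99. It had 354 and 268 in WT diestrus, 343, 219 and 244 in KO estrus, and 345 and 379 in KO diestrus, with a log2 difference at estrus of 0.66 ± 0.31 (SE; limma adjusted p = 0.195); it was 0.29 without the third WT estrus library and 1.0 without the second. Soat1, which esterifies cholesterol for storage, had 185, 212 and 212 in WT estrus, 213 and 238 in WT diestrus, 184, 287 and 245 in KO estrus, and 320 and 339 in KO diestrus, where it was highest. Without the third WT estrus library the median of this group was 0.29.

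**Figure D3:**
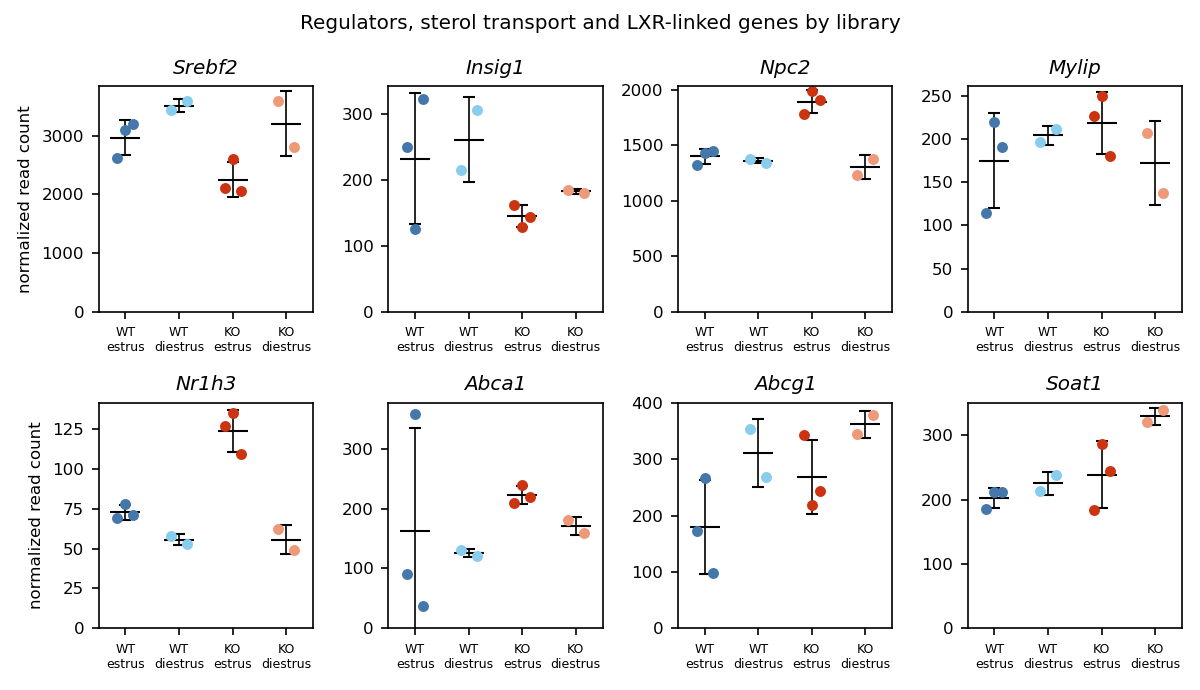
Normalized read counts of regulators, transport and LXR-linked genes in each library (points), with group means (bars) and 1 SD (whiskers; the lower whisker of Abca1 in WT estrus is drawn to 0, since its SD of 172 exceeds its mean of 162). Npc2 (1786 to 1989) and Nr1h3 (109 to 135) are highest in KO estrus, and Abca1 varies most within WT estrus.

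Macrophages are rich in Nr1h3, Abca1 and Abcg1, so their markers are given beside these genes. The 9 macrophage markers summed to 330 to 616 normalized counts in WT estrus, 569 to 639 in WT diestrus, 584 to 828 in KO estrus, and 433 and 436 in KO diestrus. Most of this was Csf1r, with 187 to 278 per library, Cd68, with 53 to 134, and Cd74, with 409, 436 and 215 in KO estrus against 211, 222 and 32 in WT estrus and 60 and 71 in KO diestrus. Of the defining markers, Adgre1 was at most 5 and C1qa at most 18 in any library, and no marker of the list was at 0 in every library of the estrus groups, while 1 was at 0 in each diestrus group. C1qb was 44, 30 and 8 in KO estrus, 8, 16 and 3 in WT estrus, 12 and 3 in WT diestrus, and 1 and 0 in KO diestrus. Cd74 was called higher in estrus within KO (log2 difference 2.35, limma adjusted p = 0.0342), a comparison that called 16.6% of all genes. Npc2 and Nr1h3 were called higher there too. C1qb passed the filter on low values only through its KO estrus libraries, so its values are given with no test and no count of these markers is read. Of the other macrophage markers tested there, Cd74 and Lyz2 had a log2 difference above 0, and Csf1r and Cd68 below. Csf1r had 187, 189 and 205 in KO estrus against 236 and 234 in KO diestrus, lower without overlap. Cd68 overlapped, at 123, 53 and 131 against 134 and 115. Lymphocyte markers, 3 of 7 in the table, summed to 58 to 92 in WT estrus and 139 to 188 in KO estrus; Trbc2, the 1 tested, was called higher in KO estrus than in WT estrus (log2 difference 1.13, limma adjusted p = 0.0276). The part of such cells in the values of Nr1h3, Npc2 and the exporters was not tested.

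At diestrus, 0 of the 31 members were called between KO and WT (limma), where 0.0395% of all genes were called. With an unadjusted p under 0.05 there were 3 members, namely Ebp and Mvk lower and Soat1 higher, against 5.92% of all genes (2.55% higher, 3.37% lower). The Soat1 difference was 0.55 ± 0.22 on the log2 scale (SE; limma adjusted p = 0.775). For the 6 enzymes that were lowest in KO estrus, the log2 difference at diestrus ran from -0.03 (Hmgcs1) to 0.37 (Sc5d), with 0.11 for Sqle, and none passed the test. With a library left out these values moved widely, from -0.47 to 0.40 for Hmgcs1, -0.26 to 0.64 for Idi1, -0.25 to 0.42 for Cyp51, -0.13 to 0.69 for Msmo1, -0.05 to 0.27 for Sqle and 0.14 to 0.61 for Sc5d. The synthesis enzymes had a median of -0.13 against 0 for all genes, and 0.03 without the second KO diestrus library. Between estrus and diestrus in WT, 0 members and 0 of all genes (0%) were called; Abcg1 had the only unadjusted p under 0.05 among the members (0.0234), being lower in estrus, against 3.87% of all genes.

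Within KO, 7 members differed between estrus and diestrus (22.6%), in a comparison in which 16.6% of all genes were called, 7.67% higher and 8.95% lower in estrus. Sqle was 2.23-fold lower in estrus (log2 difference -1.15 ± 0.24 SE, limma adjusted p = 0.0116), Msmo1 was 2.30-fold lower (-1.20 ± 0.29, adjusted p = 0.0192) and Sc5d 1.86-fold lower (-0.89 ± 0.17, adjusted p = 0.00983). Pmvk was 1.81-fold higher in estrus (0.85 ± 0.20, limma adjusted p = 0.017), Ebp 1.75-fold higher (0.81 ± 0.21, adjusted p = 0.0265), Npc2 1.45-fold higher (0.54 ± 0.13, adjusted p = 0.0199) and Nr1h3 2.21-fold higher (1.15 ± 0.23, adjusted p = 0.0105). The called enzymes of synthesis were thus split, with 3 lower and 2 higher in estrus. Hmgcs1, Idi1 and Cyp51 were lower without overlap, as were 26% of all genes, but not called, at -1.07, -0.98 and -0.78 (limma adjusted p = 0.103, 0.075 and 0.0687). This comparison shares the KO estrus libraries with the one at estrus, so the calls in both are not independent. With either KO diestrus library left out, so that 1 library stood for its group, 0 members were called. Msmo1 lost its call without the first KO estrus library (adjusted p = 0.0557) and Ebp without the first or the second (0.0772 and 0.0537), while 6 members were called lower without the third WT estrus library. With the trend on gene length and GC content removed, Sqle, Sc5d, Npc2 and Nr1h3 remained called, and Msmo1 (adjusted p = 0.0671), Pmvk (0.101) and Ebp (0.0631) did not.

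Whether the KO difference itself changed with stage was tested by the interaction, which called 0 members and 0 of all genes (0%). At an unadjusted p under 0.05 there were 8 members, with Idi1, Sqle, Cyp51, Msmo1 and Sc5d lower and Ebp, Npc2 and Nr1h3 higher, against 14.2% of all genes. The largest of these was Idi1 with -1.25 ± 0.50 on the log2 scale (SE), and Sqle had -1.07 ± 0.34 with the smallest unadjusted p, 0.00812. Adjusted p-values of the 8 were 0.256 to 0.327 (limma).

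**Figure D4:**
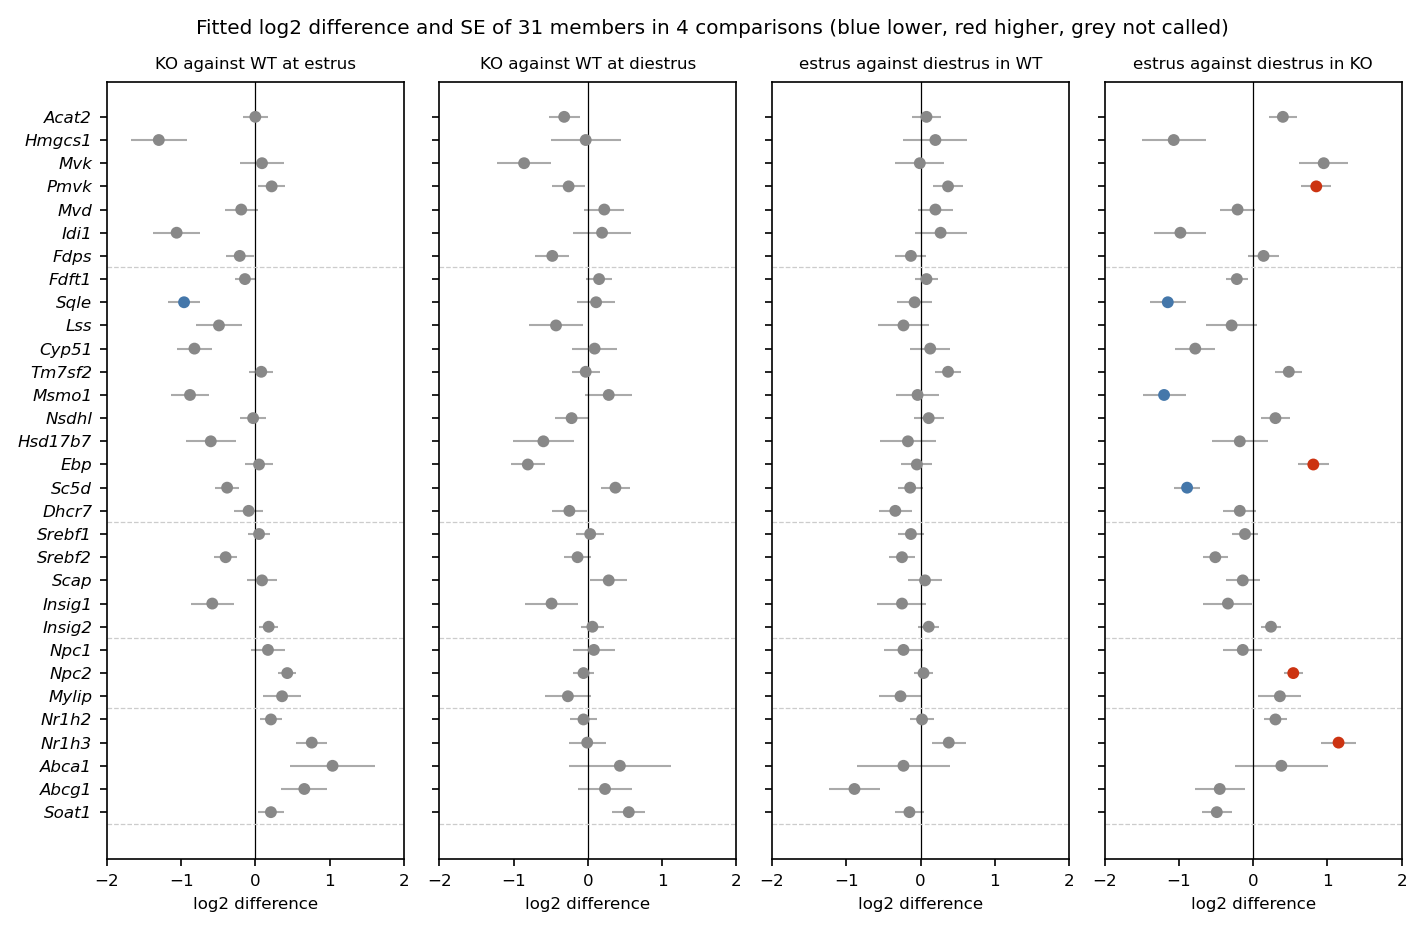
Fitted log2 difference (point) and SE (line) of the 31 tested members in 4 comparisons, grouped by role between the dashed lines; blue is called lower, red called higher and grey not called. Only Sqle is coloured at estrus, 0 members are coloured at diestrus or in the WT stage comparison, and 7 are coloured between the stages in KO.

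Other genes of these pathways were taken from lists of their roles. Of 18 tested genes of SREBP processing and sterol-regulated degradation, 4 were called lower and 0 higher in KO at estrus (limma), with a median of -0.26 against -0.01 for all genes, of which 2.94% were called lower and 1.26% higher; all 4 encode subunits of the COPII coat that carries proteins, SCAP among them, out of the endoplasmic reticulum. Sec24d had 2804, 2577 and 2707 normalized counts in WT estrus, 2633 and 3668 in WT diestrus, 931, 1315 and 1100 in KO estrus, and 2888 and 2912 in KO diestrus, and was 2.44-fold lower in KO estrus than in WT estrus (log2 difference -1.29 ± 0.16 SE, limma adjusted p = 0.00768). Sec23a was 1.83-fold lower (-0.87 ± 0.18, adjusted p = 0.0314) and Sec24c 1.70-fold lower (-0.77 ± 0.16, adjusted p = 0.031). These are general coat subunits, no gene of the list outside the coat was called, and the list was not set against other genes by a test. It was also chosen with earlier results of these data known. Its count and median are therefore not read as a result about SREBP processing.

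Of 17 fatty acid synthesis genes driven by SREBP1, 1 was called lower at estrus, the acyl-CoA synthetase Acsl3 (-0.77 ± 0.19 on the log2 scale, SE, limma adjusted p = 0.0446), and 0 higher. That is 5.88% called, near the 4.2% of all genes. Of 15 genes of the isoprenoid branch, the farnesyltransferase subunit Fntb was called higher (0.58 ± 0.15, limma adjusted p = 0.0486) and the protease Zmpste24 lower (-0.64 ± 0.16, adjusted p = 0.0482), 13.3% of the list. None was called among 9 other sterol-linked SREBP2 targets, 13 lysosomal and lipoprotein receptor genes, 15 genes of sterol transfer at membrane contacts, 12 other LXR targets and export genes and 6 oxysterol and cholesterol ester enzymes. Of the 12 other LXR targets, 11 had a log2 difference above 0, where 51% of all genes were below 0, with a median of 0.24 against -0.01; 2 of them (16.7%) had an unadjusted p under 0.05 and were higher, against 11.8% of all genes.

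Between estrus and diestrus in KO, the lipoprotein receptor Lrp8 was lower in estrus. Its relative Vldlr passed the filter on low values only through its KO diestrus libraries, so its values are given with no test and no count of their list is read. Vldlr had 10, 5 and 5 normalized counts in KO estrus against 25 and 47 in KO diestrus, and 3, 3 and 4 in WT estrus against 10 and 17 in WT diestrus. Lrp8 had 22, 23 and 13 in KO estrus against 45 and 53 in KO diestrus (log2 difference -1.33 ± 0.37 SE, limma adjusted p = 0.0323). In WT it stood in the same order, with 37, 23 and 42 in estrus against 62 and 48 in diestrus. The comparison within KO called 8.95% of all genes lower and 7.67% higher. In it 4 of 15 contact-site genes were called lower in estrus, among them the oxysterol-binding proteins Osbpl8 (-0.95), Osbpl10 (-0.86) and Osbpl5 (-0.76). Called or not, 10 of the 15 had a log2 difference below 0, the lowest at -1.19. Of 18 genes of SREBP processing, 5 were called lower and 1 higher. The last list was chosen with earlier results known, so its count is not read here either.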

How the data were processed

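RNA of 10 libraries in 4 groups was read from 1 deposited table. Each deposited value is a score, namely a normalized read count of the authors given in whole numbers and not per length. Per the submitters' processing notes, STAR, HTSeq, DESeq2 and the mm10 build were used; versions and settings are not given in the sources used here. Groups came from the genotype and stage entries of the labels; KO titles hold the word WT as well. Gene symbols, exon lengths and GRCm38 positions came from GENCODE M21, which matched 26249 of 26312 genes.

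On log2(value + 1), 15180 genes with a mean of at least 10 over all libraries were fitted with limma 3.58.1 in R 4.3.3, with 1 mean per group, a variance prior that follows the expression level, and 5 two-sided contrasts, adjusted over all tested genes by Benjamini-Hochberg at a threshold of 0.05. Groups of 2 libraries borrow their spread from the others, and fold changes of low genes are understated by the pseudocount of 1. The fit was tested on simulated data. Plots used matplotlib 3.10.9 under Python 3.11.15. Whether counting used strand is not given in the sources used here, so overlapping genes are uncertain.

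The members and lists were chosen with earlier results of these data known. Every called member and the member of largest difference in each role was named with its value in every library, and of the other lists at most 3 called genes per comparison; further members are given to complete each role. Same-numbered libraries were not paired by any label, and the correlations of their deviations from the group means ran from -0.132 to 0.187. Alternatives were other pseudocounts, filters and scalings, removal of each library's trend on length and GC content, no trend in the spread, library weights, a replicate block, fits of the compared groups alone, and omission of each library.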

Additional observations from a re-analysis of the deposited data

How the results depend on the processing

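Precision is limited by 2 or 3 libraries per group. Among the 31 members, the count lower in KO at estrus, 1 as reported, became 0 with no filter on low values, with the length and GC trend removed, without the trend in the spread and with the compared groups alone, 3 with the replicate block, and 0 to 1 with a library left out. The count higher there, 0 as reported, became 1 with a mean of at least 50, with quantile normalization and with the length and GC trend removed, and 0 to 1 with a library left out. At diestrus the count lower, 0 as reported, became 1 with library weights. Between the stages in KO, the count higher in estrus, 4 as reported, became 2 with the length and GC trend removed, 3 when all genes above 0 were kept or the spread had no trend, where Ebp lost its call (limma adjusted p = 0.0517 and 0.0608), and 0 to 5 with a library left out. The count lower, 3 as reported, became 2 with the length and GC trend removed and without the trend in the spread, where Msmo1 lost its call (adjusted p = 0.0671 and 0.0502), 6 with the replicate block, 6 with the compared groups alone and 0 to 6 with a library left out. The causes of these changes were not tested. Fits of the compared groups alone or with a library left out also hold fewer libraries.

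The replicate numbers do not pair the libraries by any label, and the block called Hmgcs1, Sqle and Msmo1 lower at estrus (limma adjusted p = 0.0269, 0.0163 and 0.0477). Over all genes, the number called at estrus was 637 and ranged from 23 with the compared groups alone to 996 with the block. At diestrus it was 6, and 147 with library weights. Between the stages in KO it was 2524, with 39 to 2894 when a library was left out and 3884 with library weights. The interaction needs all groups and has no fit with the compared groups alone; with library weights 6 genes were called. No called member changed sign under any alternative.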
